A study of Bos taurus with 2 samples.

Results

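Transcripts for the acrosome, for fusion of sperm and egg, and for the ADAM family of membrane metalloproteases were examined in bull sperm RNA. Members were taken by name: array probes named for an ADAM gene (the secreted ADAMTS enzymes left out), a SPACA, IZUMO or ZPBP gene or SPESP1, together with ACR, ACRBP, ACRV1, PLCZ1, SPAM1, HYAL1, HYAL2, CD9, CD46, PCSK4, TEX101, DPY19L2, SPATA16, PICK1 and GOPC. This gave 49 genes of the 31910 gene names on the array, 97 of 51280 probes and 103 of 61657 spots, and no probe carried the name ZP3R. The first group was spermatozoa of breeding bulls of high fertility and the second was spermatozoa of breeding bulls of low fertility, both HF crossbred, 1 array for each. The labels give no age, no treatment and no number of bulls behind an array. Since each group holds 1 array, differences between the groups have no replicate check and carry no p-value, and they describe these 2 arrays only.

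The acrosome is a secretory vesicle over the front of the sperm nucleus, built from the Golgi apparatus in the spermatid. Its contents and membranes carry proteases, a hyaluronidase and proteins that bind the zona pellucida, the coat of the egg, and it is released by exocytosis before fusion. Fusion then needs IZUMO1 on the sperm and its receptor on the egg, and PLCZ1 brought in by the sperm starts the calcium oscillations that activate the egg. Several ADAM proteins of germ cells have lost protease activity and act in sperm adhesion and in the maturation of other surface proteins, whereas ADAM10 and ADAM17 are active proteases that shed membrane proteins in most cell types. Mature sperm carry RNA left from spermatid stages, so the RNA of sperm cells is largely stored RNA. How much of the RNA measured here came from sperm cells was not tested.

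Sequences of a few probes are shown first, because the differences described for ADAM17, PLCZ1 and ADAM1A, and the levels given for the main acrosomal and fusion genes, each come from 1 or 2 such 60-base probes. They are written in the orientation listed in the scanner tables, with positions on build HGSC Btau_3.1 as those tables give them.
ADAM17, chr11:90733739-90735324, plus strand: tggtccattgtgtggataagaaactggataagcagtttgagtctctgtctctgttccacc
PLCZ1, chr5:98073061-98073120, plus strand: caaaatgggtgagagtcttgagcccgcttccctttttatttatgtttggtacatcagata
ADAM1A, chr17:65456884-65456943, minus strand: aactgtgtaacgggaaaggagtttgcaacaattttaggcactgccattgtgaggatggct
ACR, on a sequence not placed on a chromosome, bases 61577 to 61636, minus strand: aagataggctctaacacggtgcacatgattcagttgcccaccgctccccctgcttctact
SPACA4, with no position given: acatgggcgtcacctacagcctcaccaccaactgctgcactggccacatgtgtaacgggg
ZPBP, chr4:5945004-5945063, plus strand: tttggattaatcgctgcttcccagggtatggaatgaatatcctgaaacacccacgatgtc
CD9, chr5:110988644-110989536, minus strand: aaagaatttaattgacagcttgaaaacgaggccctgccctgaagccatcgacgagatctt
IZUMO3, first probe, chr8:20284940-20285198, plus strand: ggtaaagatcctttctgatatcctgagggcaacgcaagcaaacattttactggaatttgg
IZUMO3, second probe, chr8:20285120-20285179, plus strand: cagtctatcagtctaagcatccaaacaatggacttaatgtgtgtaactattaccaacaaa
The ADAM17, CD9 and first IZUMO3 probes span 1586, 893 and 259 bases of the genome with 60 bases of sequence, and so cross at least 1 exon junction. The second IZUMO3 probe is placed inside the stretch that the first one spans, and the longest run of bases common to both is 6. By these positions the second probe lies largely in bases that the first one skips, and whether both read one transcript was not tested.

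Most acrosome and fusion genes were not well above background, the scanner software's call for a spot clearly brighter than its local background. Of the 49 genes, 15 had at least 1 probe well above background on both arrays (30.6%, against 36.4% of all gene names), 1 on the high-fertile array only (4.36% of all gene names were), 2 on the low-fertile array only (4.46%) and 31 on neither. On the high-fertile array 16 genes were detected (32.7%), and on the low-fertile array 17 (34.7%), beside 40.9% of all gene names on each. Counted by probe, 18 of 97 were well above background on both arrays (18.6%), against 27.6% of all probes. The share of members detected was thus below that of the whole array on both counts, without a test of that difference. With the software's looser call of a positive and significant signal it was above: 81.6% of members in high-fertile and 79.6% in low-fertile sperm, beside 76.3% and 76.8% of all gene names.

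**Figure D1:**
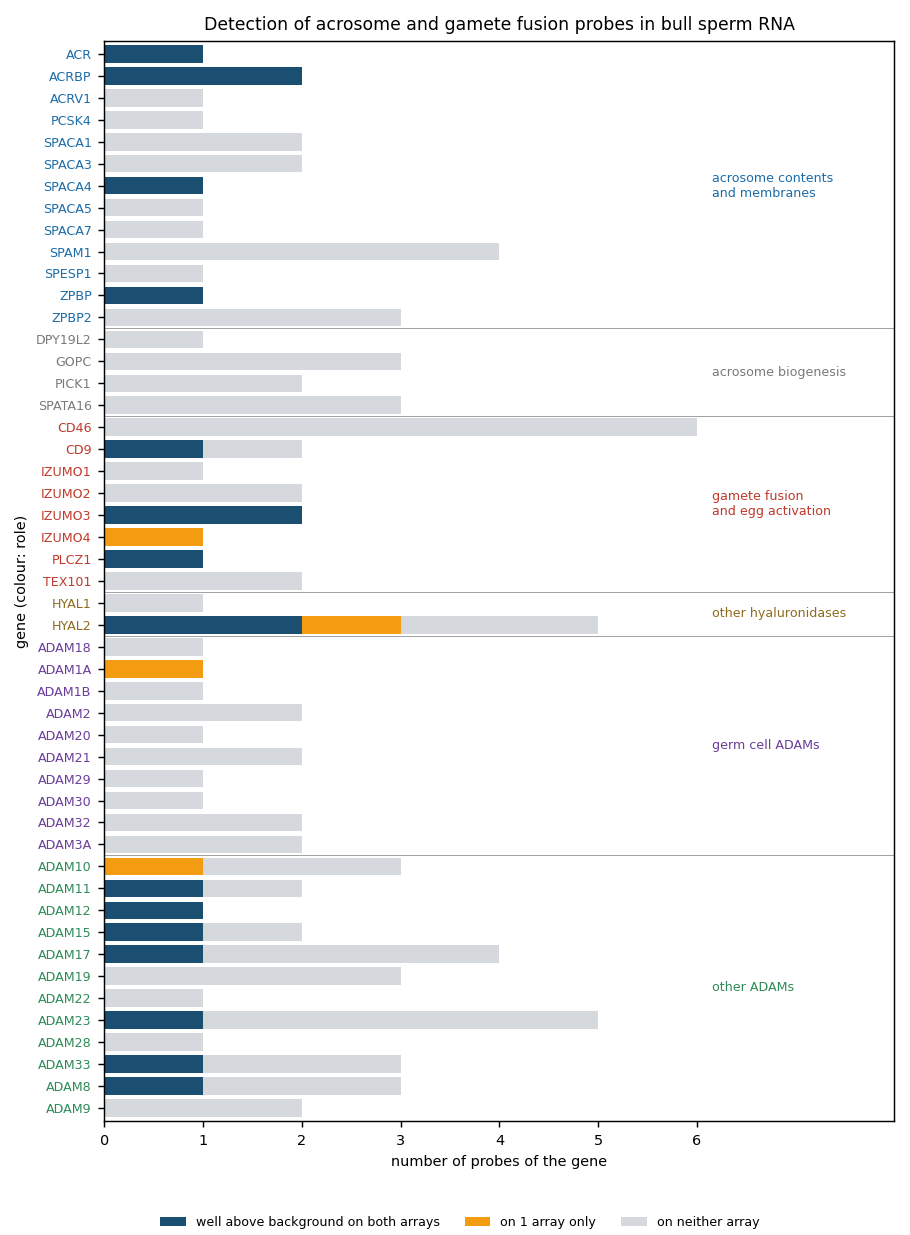
Number of probes of each of the 49 genes (horizontal axis) that were well above background on both arrays, on 1 array only or on neither, with gene names coloured by role. Counting probes that carry the gene's name, no gene of acrosome biogenesis and no germ cell ADAM has one well above background on both arrays, and 7 of the 12 other ADAMs have one.

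Detection differed in count between roles. Among the 13 genes of acrosome contents and membranes, 4 were measured on both arrays (ACR, ACRBP, SPACA4 and ZPBP). The other 9 were on neither: ACRV1, PCSK4, SPACA1, SPACA3, SPACA5, SPACA7, SPESP1, ZPBP2 and SPAM1, the acrosomal hyaluronidase PH-20, which had 4 probes. All 4 genes of acrosome biogenesis were on neither array, namely DPY19L2, SPATA16, PICK1 and GOPC, each of which is linked to round-headed sperm without a normal acrosome in mice or humans. Of the 8 genes of gamete fusion and egg activation, 3 were on both arrays (IZUMO3, CD9 and PLCZ1), 1 on the high-fertile array only (IZUMO4), and 4 on neither: IZUMO1, IZUMO2, TEX101 and CD46, the last with 6 probes.

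Of the 10 germ cell ADAMs, ADAM1A was well above background on the low-fertile array only, and ADAM1B, ADAM2, ADAM3A, ADAM18, ADAM20, ADAM21, ADAM29, ADAM30 and ADAM32 were on neither. A probe listed under an accession only and described as ADAM21 was well above background on both arrays. Of the 12 other ADAMs, 7 were on both arrays (ADAM8, ADAM11, ADAM12, ADAM15, ADAM17, ADAM23 and ADAM33), ADAM10 was on the low-fertile array only, and ADAM9, ADAM19, ADAM22 and ADAM28 were on neither. Of the 2 hyaluronidases named HYAL, HYAL2 was on both arrays and HYAL1 on neither. On chromosome 27 the probes of ADAM9, ADAM32, ADAM2, ADAM3A and ADAM18 lie together between 36506569 and 37308523 on build HGSC Btau_3.1, and none of these 8 probes was well above background. A gene with no detected probe has only an upper bound here: the 75 member probes on neither array had processed signals of 4.50 to 23.4 (median 6.80) on the high-fertile array and 6.09 to 34.3 (median 8.42) on the low-fertile array. The lowest signal called well above background for any probe was 22.6 in high-fertile and 30.3 in low-fertile sperm.

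The probe features examined separated detected from undetected members much as they did over the whole array. The median GC content was 45% for detected and 43.3% for undetected member probes, the same values as over all probes. Of 22 member probes that cross an exon junction 4 were detected on at least 1 array (18.2%), against 17 of 72 placed probes that do not (23.6%), beside 26.8% and 37.3% over all probes. In 9 members with both detected and undetected placed probes, the one nearest the 3' end was detected in 4 (44.4%), against 52.8% of 4984 such genes on the array. The mean share of probes detected in these genes was 41.1% for the members and 46.6% over the array.

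The labelled tissue was checked with markers. Of 15 markers of spermatozoa and spermatids 7 were measured on both arrays, PRM1, TNP1, TNP2, ODF1, ODF2, GAPDHS and CATSPER1, while PRM2, AKAP4, CRISP2 and LDHC were among the 8 not well above background. Among these 7, TNP2 was past 2-fold upward (1.22 on the log2 scale, from 1 of its 2 probes) and PRM1 past 2-fold downward (-1.10, over 2 probes). None of 7 markers of spermatogonia and meiosis was measured on both arrays: DDX4, DAZL, KIT, STRA8, SYCP3 and DMC1 were on neither, and UCHL1 was on the low-fertile array only. Leukocyte markers were measured for 10 of 12, with CD3E and S100A9 on neither array, and their summed scaled signal (processed signal divided by the array's scaling value) was 138 in high-fertile and 182 in low-fertile sperm. For the sperm markers this sum was 4.82 in high-fertile and 5.35 in low-fertile sperm. For epithelial and other somatic markers (5 of 10 measured) it was 13.1 in high-fertile and 11.8 in low-fertile sperm, and for testis somatic markers (6 of 8) 14.6 in high-fertile and 12.6 in low-fertile sperm. The sums ran over 16 measured probes for leukocyte, 8 for sperm, 11 for epithelial and other somatic and 8 for testis somatic markers. They also depend on a few bright probes, so they do not compare levels between lists. In the leukocyte sum, 1 of the bright probes was that of CD3D, which read 4647 in high-fertile and 7439 in low-fertile sperm before scaling. It was not the only bright probe of that list. Median differences of these lists lay between 0.02 and 0.27 on the log2 scale. In total RNA from many cells, fewer cells of a type and less RNA per cell cannot be told apart, and the part that other cells' RNA had in the values below was not tested.

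**Figure D2:**
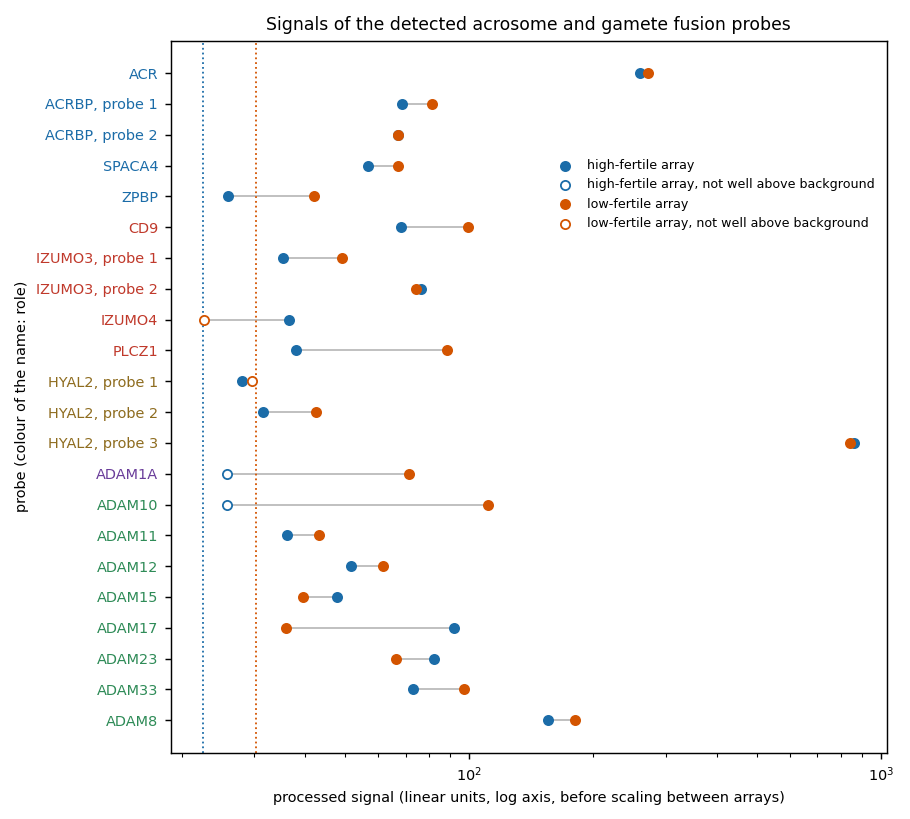
Processed signal (linear units on a log axis, before scaling between arrays) of the 22 probes well above background on at least 1 array, high-fertile in blue and low-fertile in orange, with open circles where a probe was not well above background. Dotted lines mark the lowest signal well above background for any probe of each array, 22.6 for high-fertile and 30.3 for low-fertile sperm, and the open circles are ADAM1A and ADAM10 in high-fertile sperm and IZUMO4 and a HYAL2 probe in low-fertile sperm.

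The comparison asked whether these transcripts differed in level between bulls of high and low fertility. Of the 15 genes measured on both arrays, ADAM17 was at least 2-fold higher on the high-fertile array and none was at least 2-fold lower. Over all 11619 genes measured, 1.88% passed 2-fold upward and 2.44% downward, and the members' 6.67% upward is the share that 1 gene of 15 makes. The median difference of the members was 0.11 on the log2 scale (high-fertile minus low-fertile), with a range of -0.89 to 1.68, and the median of all genes was 0.00. Differences above 0 were found for 11 of the 15 members (73.3%), against 49.9% of all genes, without a test. When the arrays were scaled on spike-in probes, the count was 3 of 15 and the median of all genes moved to -0.60. With no filter on dim probes the median of all 49 members was -0.12, as was that of all genes. Differences were within 0.5 for 11 members (73.3%), against 78.3% of all genes.

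Signals below are processed signals in linear units, and each difference is taken after scaling, by 149 for the high-fertile array and 186 for the low-fertile array. A probe with equal linear signals therefore has a difference above 0. The ± value is the error that the scanner software assigns to the spots, carried to the log2 difference, and it holds no spread between bulls or RNA preparations. For comparison, the log2 difference had an SD of 0.28 between the 2 spots of a probe (3038 probes) and 0.42 between measured probes of one gene (1851 genes).

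**Figure D3:**
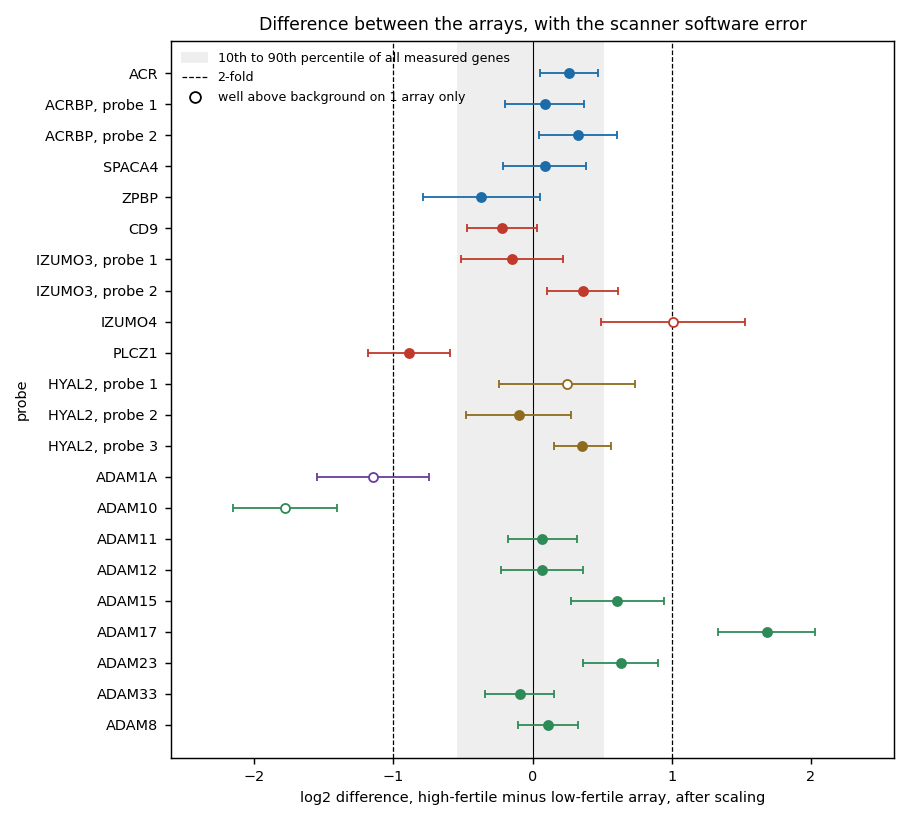
Log2 difference (high-fertile minus low-fertile array, after scaling) of each of the 22 detected probes, with the scanner software error as a bar and open circles for probes well above background on 1 array only. Most filled points lie inside the grey band, the 10th to 90th percentile of all measured genes (-0.54 to 0.51), and ADAM17 at 1.68, ADAM23 at 0.63, ADAM15 at 0.61 and PLCZ1 at -0.89 lie outside it.

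The 4 measured genes of acrosome contents differed little. ACR encodes acrosin, the serine protease of the acrosomal matrix, and its probe read 259.6 in high-fertile and 272 in low-fertile sperm, a difference of 0.26 ± 0.21. ACRBP, which binds proacrosin and holds it in the acrosome until release, had 2 probes. The first ACRBP probe read 68.7 in high-fertile and 81.1 in low-fertile sperm (0.09 ± 0.28). The second read 67.3 on both arrays (0.33 ± 0.28), and the gene's mean difference was 0.21 (SD 0.17 between the 2 probes). The first ACRBP difference was smaller than its spot error, and the ACR and second ACRBP differences were slightly larger than theirs.

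SPACA4, a lipid-anchored protein of the sperm head needed for passage of the zona in mice, read 56.8 in high-fertile and 67.0 in low-fertile sperm (0.09 ± 0.30). ZPBP, a zona-binding protein of the acrosomal matrix, read 25.9 in high-fertile and 42.0 in low-fertile sperm (-0.37 ± 0.42). The ZPBP signals were close to the lowest that counted as well above background, and the difference was smaller than its error. ACR, ACRBP and SPACA4 had differences below 0 with spike-in scaling, where all 4 genes lay between -0.97 and -0.34.

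Among the fusion and egg activation genes, PLCZ1, the phospholipase C of sperm, read 38.0 on the high-fertile array, against 88.1 on the low-fertile array. The difference was -0.89 ± 0.29, a 1.85-fold lower level on the high-fertile array from the gene's only probe, short of the 2-fold threshold. None of the 6 spots nearest to this spot was 2-fold lower. The PLCZ1 difference was below 0 in all 9 settings computed for it, the reported one included. It ran from -1.49 with spike-in scaling, which is past 2-fold, to -0.42 with another background correction (normexp). Since all settings use the same spot, and the no-filter and brightest-probe settings repeat the reported value, they are not independent checks.

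CD9 is a tetraspanin that mice need on the egg for fusion, and it is also found on sperm and many somatic cells. Its probe across an exon junction read 68.2 in high-fertile and 99.5 in low-fertile sperm (-0.22 ± 0.25), and its other probe was not well above background on either. IZUMO3, a relative of IZUMO1 needed for acrosome formation in mice, read 35.3 in high-fertile and 49.1 in low-fertile sperm with the first probe (-0.15 ± 0.37). The second IZUMO3 probe read 76.1 in high-fertile and 74.4 in low-fertile sperm (0.36 ± 0.25). The 2 probes thus differed in sign, and the gene's mean difference of 0.11 (SD 0.36) was smaller than their spread.

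IZUMO4, the family member without the immunoglobulin domain, read 36.5 on the high-fertile array and 22.7 on the low-fertile array, where it was not well above background. The bound was 1.51-fold higher on the high-fertile array. Such a bound sets the brighter array against the higher of the dim probe's own signal and the lowest signal well above background on the other array. For IZUMO4 that lowest signal was 30.3, but a member probe of 34.3 on the low-fertile array was not well above background. The bound is therefore not a firm minimum. The ratio of the IZUMO4 signals after scaling was 1.01 ± 0.52 on the log2 scale. Of the 1390 gene names on the high-fertile array only, 7.41% had a bound of at least 2-fold. The IZUMO4 bound was 1.24-fold with normexp, and with spike-in scaling it was below 1, so that no fold can be given.

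HYAL2, a membrane-anchored hyaluronidase of many tissues, had 5 probes, of which 1 read 859.8 in high-fertile and 843 in low-fertile sperm (0.36 ± 0.20). That probe shares a run of 16 bases with probes of 2 other genes. Another HYAL2 probe read 31.5 in high-fertile and 42.4 in low-fertile sperm (-0.10 ± 0.38), and one near the background limit read 28.1 on the high-fertile array and 29.7, not well above background, on the low-fertile array. The mean over the 2 probes measured on both arrays was 0.13 (SD 0.32), and the differences of these probes lay on both sides of 0.

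Among the germ cell ADAMs, ADAM1A alone had a detected probe carrying the gene's name, and it is 1 of the 2 ADAM1 genes whose products pair with ADAM2 in mouse germ cells. It read 25.8, not well above background, on the high-fertile array and 71.5 on the low-fertile array. The bound was 2.21-fold lower on the high-fertile array. It equals the ratio of these signals after scaling (-1.15 ± 0.40 on the log2 scale), so it is not a firm minimum. None of the 6 spots nearest to the ADAM1A spot was 2-fold lower. The neighbouring gene on chromosome 17, ADAM1B, was on neither array. Of the 1422 gene names on the low-fertile array only, 17% had a bound of at least 2-fold. With normexp the ADAM1A bound was 1.21-fold.

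The other ADAMs held the member past 2-fold and the widest range of differences. ADAM17, the protease that releases tumour necrosis factor from the cell surface, read 91.9 on the high-fertile array, against 35.9 on the low-fertile array. The difference was 1.68 ± 0.35, or 3.21-fold higher on the high-fertile array. It was larger than the SDs between spots and between probes given above, which are pooled over many genes and are not set for dim probes. The signal of 35.9 was close to 30.3, the lowest that counted as well above background on the low-fertile array. It came from 1 of 4 probes. The other 3 stayed near background on both arrays and read 18.4, 6.85 and 4.70 on the high-fertile array, against 18.9, 17.0 and 6.76 on the low-fertile array.

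These 3 probes did not show the difference of the first, with log2 values of 0.29, -0.98 and -0.20 and errors of 0.67 to 2.05. Over all 4 probes the mean difference of ADAM17 was 0.20, and with normexp the measured probe gave 0.84. A further probe, named by its accession only but assigned to ADAM17 in the reference table, read 19.7 and 20.8 in its 2 spots on the high-fertile array and 26.9 and 31.0 on the low-fertile array, all not well above background. Of the 6 spots nearest to the measured ADAM17 spot, 1 was also 2-fold higher on the high-fertile array.

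ADAM10, the related shedding protease that cleaves Notch receptors, had 1 detected probe of 3. It read 25.8, not well above background, on the high-fertile array and 111 on the low-fertile array. The bound was 3.43-fold lower on the high-fertile array. It equals the ratio of these signals after scaling (-1.78 ± 0.37 on the log2 scale), so it is not a firm minimum. One ADAM10 neighbour spot of 6 was 2-fold lower as well, and with normexp the bound was 1.66-fold. The 2 shedding proteases thus lay on opposite sides, each by a single probe. Both are expressed by leukocytes, whose markers had a median difference of 0.02, a range of -0.51 to 0.61 and the sums given above. Whether leukocyte RNA had a part in either value was not tested.

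ADAM23, an inactive family member known from the nervous system, read 82.0 in high-fertile and 66.3 in low-fertile sperm (0.63 ± 0.27). Only 1 of its 5 probes was detected, and a probe sharing 38 bases with it read 7.88 in high-fertile and 6.56 in low-fertile sperm, well above background on neither array. ADAM15, a metalloprotease with a disintegrin domain, read 47.8 in high-fertile and 39.3 in low-fertile sperm with 1 of 2 probes (0.61 ± 0.33), and this probe shares a run of 16 bases with a probe of another gene. Both differences were under 2-fold and stayed above 0 in the settings computed, down to 0.03 for ADAM23 and 0.01 for ADAM15 with spike-in scaling.

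The remaining 4 ADAMs differed by less than the error of their spots. ADAM8, a protease of leukocytes, read 155 in high-fertile and 180.2 in low-fertile sperm (0.11 ± 0.22). ADAM11, an inactive neuronal member, read 38.1 and 34.3 in its 2 spots on the high-fertile array, against 43.1 and 43.4 on the low-fertile array (0.07 ± 0.25). ADAM12, known from muscle and placenta, read 51.5 in high-fertile and 61.7 in low-fertile sperm (0.07 ± 0.29). ADAM33, a protease of smooth muscle and fibroblasts, read 72.8 in high-fertile and 97.3 in low-fertile sperm (-0.09 ± 0.25). The signs of these 4 differences changed with the scaling or with the filter on dim probes.

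Genes of the same pathways that the names above did not take were read from 3 lists. Of 19 acrosome biogenesis genes on the array 9 were measured, beside 36.4% of all gene names, with a median difference of 0.16. At least 2-fold higher was 1 of these 9 and none was lower, beside 1.88% and 2.44% of all genes measured. The one higher was ACTL7B, a spermatid actin-like protein of the acrosome's cytoskeleton, which read 205.8 in high-fertile and 113 in low-fertile sperm (1.19). It rests on the gene's only probe. Spike-in scaling, which moved the median of all genes to -0.60, would bring it under 2-fold. RAB2A, a Golgi GTPase, differed by 0.43, the glucosylceramidase GBA2 by -0.10 and the kinase subunit CSNK2A2 by -0.04.

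Of 24 genes of acrosomal exocytosis 10 were measured, with a median of 0.10 and none past 2-fold. The secretory GTPase RAB27A differed by 0.47, and complexin CPLX2, which clamps SNARE complexes, by 0.21. The second complexin, CPLX1, read 47.2 in high-fertile and 95.2 in low-fertile sperm (-0.68). Of 25 genes of the sperm surface, zona binding and fusion 7 were measured, with a median of -0.18 and none past 2-fold. This list also held the egg coat genes ZP2, ZP3 and ZP4, and its median was the value of ZP3. In that list arylsulfatase A (ARSA), which binds sulfolipids of the sperm surface, differed by 0.27 and PAFAH1B1 by 0.19, while the galactosyltransferase B4GALT1 differed by -0.30 and LYPD4 by -0.29. The 3 medians lay within 0.2 of 0, as did the members' median.

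**Figure D4:**
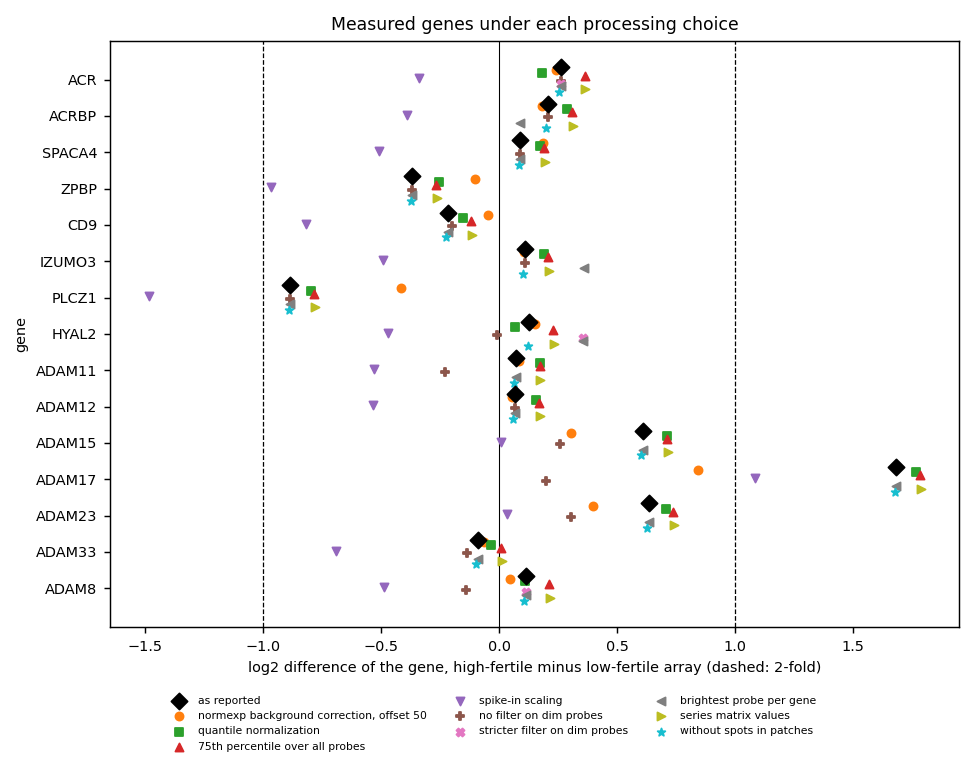
Log2 difference (high-fertile minus low-fertile array) of the 15 genes measured on both arrays, as reported (black diamonds) and under each other processing choice (coloured marks), with dashed lines at 2-fold. ADAM17 spreads from 0.20 to 1.79 and PLCZ1 from -1.49 to -0.42, and spike-in scaling moves every gene to the left.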

How the data were processed

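Per the labels' protocols, sperm total RNA was reverse transcribed from an oligo-dT primer and its cRNA carried Cy3. The deposited scanner tables give linear spot intensity, made with Agilent Feature Extraction 11.5.1.1 per the file headers, with background subtracted and spatial trend removed. How the arrays were normalized against each other is not given in the sources used here. Values of the deposited series matrix are log2: they equalled the log2 processed signal plus a constant (-5.12 in the high-fertile column, -5.55 in the low-fertile one, within 0.01 for 98.6% of probes), with column medians of -1.43 and -1.37. Its direction is that of expression and genes are not centred.

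Control spots and flagged spots were left out, log2 signals were averaged over the spots of a probe, and each array's 75th percentile over probes well above background on both arrays was subtracted (149 for high-fertile, 186 for low-fertile sperm). Gene differences were means over probes well above background on both arrays, counted from 2-fold. A test on simulated data with known changes came before the analysis. Its noise was the same for dim and bright probes and below the SD between probes of one gene, so it checked the calculation only. Both arrays lay on one slide, and the number of arrays limits the precision. Spots in patches had at least 3 of the 6 nearest spots 2-fold the same way, and no detected member spot was in one. Probe names outside the rule came from accessions in a RefSeq table of assembly ARS-UCD2.0 (28110 probes), symbols (6484) or older symbols (153), and 16533 kept the file's name. Members keep the name in the file.

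The members, roles, lists and alternatives were chosen with earlier results of these data known. All members detected on at least 1 array are named with values, the others by name, and from each list up to 2 genes from each end of the differences, positive and negative, of which 1 gene is not reported here. The 9 alternatives for the differences included normexp (limma 3.58.1 in R 4.3.3), and 1 for detection took signals called positive and significant by the scanner software. That alternative was added after seeing the data for genes on 1 array only.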

Additional observations from a re-analysis of the deposited data

How the results depend on the processing

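No paired analysis was possible because each group holds 1 array. The count of 1 member at least 2-fold higher on the high-fertile array became 0 with normexp, 0 with a stricter filter that left 3 genes (ACR, ADAM8 and HYAL2), and 3 with no filter on dim probes (ADAM20, IZUMO4 and SPACA3, over 49 genes). The count of 0 at least 2-fold lower became 1 with spike-in scaling (PLCZ1) and 1 with no filter (ADAM1A). The members' median of 0.11 became -0.49 with spike-in scaling, which shifts every gene by one constant and put the median of all genes at -0.60. With no filter the members' median was -0.12, beside -0.12 for all genes, so its sign turned and its distance from all genes was 0.00. These counts and the median held within 1.5 times, or moved by less than the spread, with the brightest probe, the 75th percentile of all probes, quantile normalization and series matrix values, and without spots in patches.

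Counting signals called positive and significant, 40 genes were detected in high-fertile and 39 in low-fertile sperm, and 6 on 1 array only, beside 76.3%, 76.8% and 11% of all gene names, so the counts of 16, 17 and 3 are set by how strict the call is. Over all 11619 genes measured, 218 higher and 284 lower (1.88% and 2.44%) became 72 and 48 with normexp and 33 and 1793 with spike-in scaling. The 75th percentile of all probes gave 295 and 203, and the series matrix values 297 and 201. Changing the filter also changed the number of genes counted. No filter gave 786 and 1752 of 31910 genes (2.46% and 5.49%). The stricter filter gave 125 and 46 of 4257 genes (2.94% and 1.08%). For the other changes the cause was not tested. Signals near background limit most members: 12 of the 15 measured genes rest on 1 probe, and 12 fell below the stricter limit of 4 times the lowest signal well above background on both arrays.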

Other observations

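Some probes on the arrays are listed under an accession only and were not taken by the name rule, although their description names one of these genes. A probe described as ADAM8 read 562 and 579 in its 2 spots on the high-fertile array, against 538 and 511 on the low-fertile array, with log2 differences of 0.39 and 0.51. A probe described as ADAM21 was well above background in both spots of both arrays, with 32.6 and 36.2 in high-fertile and 38.5 and 43.3 in low-fertile sperm (0.09 and 0.07), whereas the 2 probes that carry the name ADAM21 were on neither array. A probe described as PCSK4 was well above background on the high-fertile array only, with 31.5 and 36.7 there, against 31.7 and 30.6 on the low-fertile array. Probes described as IZUMO1, SPAM1, ADAM18, ADAM22, ADAM11 and GOPC were well above background on neither array, and the same held for 3 probes assigned to SPACA9 by accession. Detection of ADAM8, ADAM21 and PCSK4 in these RNAs thus differs between the probes that stand for each gene.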
